A study of Rattus norvegicus with 30 samples.

Results

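Transcript levels of 9 genes for extracellular proteases and their control were examined in rat oesophageal epithelium: the plasminogen activators Plat and Plau, the urokinase receptor Plaur, the inhibitor Timp1 and the matrix metalloproteinases Mmp2, Mmp3, Mmp9, Mmp13 and Mmp14. They were taken by name, all 9 were on the array, and 14217 genes were measured in all. There were 30 male Sprague-Dawley rats. All rats were put on their diet at 4 weeks of age, and all received the oesophageal carcinogen N-nitrosomethylbenzylamine (NMBA), 4 doses of 2 mg/kg from week 5, so every group, the comparison groups included, is a carcinogen-treated one. The 20-week antimiR group (5 rats) was fed a zinc-deficient (ZD) diet and injected by tail vein with an antimiR, an LNA-modified oligonucleotide complementary to miR-31: a loading dose of 20 mg/kg, 9 maintenance doses of 6 mg/kg in the first 5 weeks and 20 further doses. The 5-week antimiR group (5 rats) was on ZD and had the loading dose and the 9 maintenance doses only. The untreated ZD group (5 rats) ate the ZD diet freely without antimiR, and the untreated zinc-sufficient (ZS) group (5 rats) was pair-fed to the ZD intake. A separate experiment used rats of the same strain in which CRISPR/Cas9 had disrupted miR-31, 6 on ZD and 4 on ZS; wild-type littermates are not analysed here. Tissue was taken 15 weeks after the first NMBA dose, but the labels do not settle whether this held for the 5-week antimiR group. The untreated rats had no vehicle or control oligonucleotide, so dosing itself cannot be told apart from miR-31 inhibition, and the number of founder lines behind the knockout rats is unknown here. Each array is from 1 rat per the labels.

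Plasmin, which the activators encoded by Plat (tissue type) and Plau (urokinase type) release from plasminogen, dissolves fibrin and cleaves matrix proteins, and Plaur holds urokinase at the cell surface. The matrix metalloproteinases are zinc-dependent enzymes: Mmp2 and Mmp9 encode gelatinases, Mmp3 a stromelysin, Mmp13 a collagenase and Mmp14 a membrane-bound protease that activates the Mmp2 product. Timp1 encodes a secreted inhibitor of many of these enzymes. In squamous epithelia these genes are known for their part in wound repair and in invasion of the underlying stroma.

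The microRNA that the antimiR is directed against, and that the knockout removes, is shown first, with its seed (bases 2 to 8) in capitals. It is taken from RefSeq, build GRCr8, minus strand, chr5:108714906-108714927.
rno-miR-31a-5p: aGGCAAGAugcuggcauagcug
These arrays do not report its level, so neither inhibition nor knockout was checked.

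The promoters of Mmp13 and Mmp3 are shown because these genes were high together in 1 rat below. They are the 250 bases before the start site of the RefSeq transcript in GRCr8, which for Mmp3 lies just inside the span listed for the gene, plus strand, chr8:12782579-12782828 for Mmp13 and chr8:12925031-12925280 for Mmp3. Capitals mark a match to the AP-1 motif, searched as TGAGTCA and its reverse complement TGACTCA.
Mmp13: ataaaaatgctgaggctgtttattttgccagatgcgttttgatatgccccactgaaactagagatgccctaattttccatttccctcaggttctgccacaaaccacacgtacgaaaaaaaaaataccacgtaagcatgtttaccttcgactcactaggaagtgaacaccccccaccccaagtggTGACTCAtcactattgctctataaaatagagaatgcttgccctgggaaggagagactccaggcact
Mmp3: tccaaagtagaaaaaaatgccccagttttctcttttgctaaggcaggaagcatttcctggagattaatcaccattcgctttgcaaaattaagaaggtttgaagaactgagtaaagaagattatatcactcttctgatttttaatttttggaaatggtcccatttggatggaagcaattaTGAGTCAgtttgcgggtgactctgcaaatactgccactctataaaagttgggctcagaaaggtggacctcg
The motif is the binding sequence of Fos and Jun dimers. It lay with its first base at -66 in Mmp13 and at -71 in Mmp3, and a TATAAA match followed at -47 and at -32. Of the other members with a promoter entry, Plaur held 1 AP-1 match at -83, and Plau and Timp1 held neither motif in this window. Plat, Mmp2, Mmp14 and Mmp9, the last being high in the same rats as Mmp13 below, had no promoter entry and were not searched. Among 33469 rat promoters of the same length, 4.05% held the AP-1 motif and 12.9% held TATAAA or its reverse complement TTTATA, which do not overlap the AP-1 letters. These matches describe the sequence only.

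Values are log2 expression per probe set, and 1 unit is a doubling. The median array value lay between 5.81 and 5.93 on the 10 knockout arrays and between 5.37 and 5.45 on the 20 arrays of unedited rats. Experiment, normalization and genotype therefore cannot be told apart, and knockout rats were not tested against unedited rats on the same diet. The diet by genotype interaction below compares diet effects across the experiments and has the same limit. The verbs rose and fell are kept for genes under a limma adjusted p of 0.05, taken over all 14217 genes. The 9 measured squamous epithelial markers, among them Krt5, Krt13 and Cdh1, had array means between 12.3 and 12.6, so the labelled tissue carried its markers. Smooth muscle, fibroblast and macrophage transcripts were present as well, at levels that differed between the groups, and in this bulk tissue fewer cells of a type and less RNA per cell cannot be told apart. Skeletal muscle transcripts varied widely within groups, with array means from 5.03 to 9.90 in untreated ZD rats (SD 1.84). In ZD knockout rats they ran from 8.03 to 10.46 (SD 1.01). The part of this uneven muscle content in the results was not tested.

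Zinc deficiency in unedited rats was accompanied by higher Plat, Plau and Mmp13, 3 of the 9 genes, and none fell. Over all genes 13.9% passed in either direction and 6.94% rose and 6.95% fell. The median change of the 9 genes was 0.58, against 0.0036 for all genes, and it was 0.27 without ZD rat 11. Plat lay above every ZS rat in all 5 ZD rats, whereas Mmp13 was high in 2 of them. Markers of other cell types moved in the same comparison. Of the smooth muscle list 9 of 10 genes fell (median -2.3), and of the squamous list 3 of 9 fell (Krt15, Evpl and Ppl, median -0.018). Of the endothelial list 2 of 9 rose (Kdr and Flt1) and 8 lay above 0 (median 0.26), with array means from 6.42 to 6.72 in ZD rats and from 6.07 to 6.39 in ZS rats. In the macrophage list 1 of 10 rose (Lyz2, median 0.26) and in the neutrophil list 1 of 6 rose (S100a8, by 3.99, median 0.30), while none of 10 fibroblast genes passed (median -0.44). The neutrophil genes Mpo, Elane, Ltf and Ngp were not measured. Which cells carried S100a8, and whether neutrophil number changed, was not tested. The part of these lists in the changes of the protease genes was not tested either.

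Plat (chromosome 16, 75943061 to 76022037 in GRCr8) stood at 8.92, 10.25, 9.35, 8.96 and 9.46 in untreated ZD rats 11 to 15, against 6.46, 7.91, 7.36, 6.38 and 7.32 in untreated ZS rats 16 to 20. The groups did not overlap. The fitted rise was 2.30 (SE 0.42, limma adjusted p = 0.000831), a 4.93-fold difference, and it passed in each of 10 fits that left out 1 rat. The smooth muscle list moved opposite to Plat, with array means between 7.10 and 8.38 in ZD rats and between 9.11 and 10.57 in ZS rats. With that level as a covariate, Plat stood at 1.36 (limma adjusted p = 0.204).

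Plat was also high in ZD rats given antimiR. In the 20-week group it stood at 10.04, 10.48, 8.62, 8.03 and 7.83 in rats 1 to 5, and in the 5-week group at 9.33, 10.08, 9.77, 9.16 and 9.14 in rats 6 to 10. All 5 rats of the 5-week group lay above every ZS rat, while 1 rat of the 20-week group, rat 5, lay inside the ZS range. Against ZS rats, Plat rose by 1.92 after 20 weeks (SE 0.42, limma adjusted p = 0.0119) and by 2.41 after 5 weeks (SE 0.42, limma adjusted p = 0.000972). The call after 20 weeks was lost without rat 1 (1.66, limma adjusted p = 0.0515) or rat 2 (1.55, limma adjusted p = 0.0522), the rats of that group with the highest Plat. It was also lost with the smooth muscle covariate (1.43, limma adjusted p = 0.0924), and the smooth muscle means of rats 1 and 2 were 8.27 and 7.25, against 8.86, 9.80 and 9.21 in rats 3 to 5. Against untreated ZD rats the difference did not pass, at -0.39 after 20 weeks (95% interval from -1.25 to 0.48) and at 0.11 after 5 weeks (95% interval from -0.76 to 0.97). Comparisons that use the same ZS or ZD rats share those arrays and are not independent.

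In knockout rats, Plat stood at 9.57, 8.01, 8.70, 8.75, 8.72 and 8.41 on ZD (rats 34 to 39), with a lowest, median and highest value of 8.01, 8.71 and 9.57, against 7.57, 8.14, 9.06 and 7.96 on ZS (rats 30 to 33). The groups overlapped and the difference was 0.51 (SE 0.43, limma adjusted p = 0.43). The diet by genotype interaction was -1.79 (SE 0.60) and did not pass (limma adjusted p = 0.0612). That interaction passed when ZS rat 17, ZS knockout rat 30 or ZD knockout rat 34 was left out, with limma adjusted p = 0.0489, 0.0407 and 0.0458.

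Plau (chromosome 15, 3505485 to 3511987) moved less. It stood at 9.41, 9.13, 9.07, 8.71 and 9.02 in untreated ZD rats, against 8.66, 8.37, 8.08, 8.93 and 8.26 in ZS rats, so that ZS rat 19 lay above ZD rat 14. The rise was 0.61 (SE 0.18, limma adjusted p = 0.0244). It was lost in 5 of 10 fits that left out 1 rat, without ZD rat 11 or 12 or ZS rat 17, 18 or 20 (limma adjusted p up to 0.0728), and with the mean of both probe sets (0.53, limma adjusted p = 0.0819) or the smooth muscle covariate (0.60, limma adjusted p = 0.26). The group means were 9.20 ± 0.35 after 20 weeks of antimiR and 9.06 ± 0.25 after 5 weeks, beside 9.07 ± 0.25 in untreated ZD and 8.46 ± 0.33 in ZS rats (SD, n = 5 each). Against ZS rats both antimiR groups were higher, by 0.74 (limma adjusted p = 0.0227) and by 0.60 (limma adjusted p = 0.0372), and these calls were lost in 4 and in 7 of 10 fits that left out 1 rat, with limma adjusted p up to 0.101 and 0.11. Both were also lost with the mean of the probe sets and with the smooth muscle covariate.

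In knockout rats the 2 probe sets of Plau differed. The brighter one, used here, stood at 9.14 ± 0.27 on ZD (n = 6), against 9.21 ± 0.32 on ZS (SD, n = 4), a difference of -0.07 (95% interval from -0.45 to 0.31, limma adjusted p = 0.831). The dimmer one lay between 4.92 and 6.89 on ZD and between 6.65 and 7.85 on ZS, and fell by 1.10 in a fit over all probe sets (SE 0.26, limma adjusted p = 0.0037). With the mean of both probe sets Plau fell by 0.59 (limma adjusted p = 0.0411), so a statement on Plau in knockout rats depends on the probe set.

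Plaur (chromosome 1, 89181363 to 89196308) did not pass with diet in unedited rats. It lay between 3.78 and 4.12 in untreated ZD rats and between 3.88 and 4.02 in ZS rats, with a difference of 0.013 (95% interval from -0.22 to 0.24). After antimiR it lay between 3.66 and 3.83 (20 weeks) and between 3.66 and 3.88 (5 weeks), at -0.20 and -0.18 relative to untreated ZD rats (limma adjusted p = 0.407 and 0.781). Values this low on the array may lie near background, which was not tested.

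Mmp13 (chromosome 8, 12782829 to 12793108) stood at 7.15 and 8.26 in untreated ZD rats 11 and 12 and at 3.18, 3.42 and 2.93 in untreated ZD rats 13 to 15, against 3.03, 2.74, 2.60, 2.82 and 2.92 in ZS rats 16 to 20. The group therefore split into 2 high rats and 3 rats at or just above the ZS range. The rise passed at 2.17 (SE 0.62, limma adjusted p = 0.0199). That SE pools very unequal spreads over all 6 groups, with an SD of 2.52 in untreated ZD and 0.16 in ZS rats. The call depends on this pooling. It was lost without rat 11 (1.63, limma adjusted p = 0.0687), without rat 12 (1.35, limma adjusted p = 0.0675), when only the 20 unedited arrays were fitted (limma adjusted p = 0.0596) and when the smooth muscle level was a covariate (1.61, limma adjusted p = 0.395).

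No rat of the other 5 groups came near these levels of Mmp13. The 20-week antimiR rats lay between 2.80 and 3.12, the 5-week antimiR rats between 2.79 and 3.24, the ZD knockout rats between 2.69 and 3.06 and the ZS knockout rats between 2.51 and 2.86. Relative to untreated ZD rats, Mmp13 was at -2.03 after 20 weeks of antimiR (SE 0.62) and at -1.98 after 5 weeks (SE 0.62). Neither passed (limma adjusted p = 0.114 and 0.49). After 20 weeks it passed when rat 15, a low ZD rat, was left out (-2.55, limma adjusted p = 0.0242). The diet effect in knockout rats was 0.17 (SE 0.63, limma adjusted p = 0.885), and the interaction of -1.998 did not pass (limma adjusted p = 0.166). Both use a spread shared by all groups. The pooled SD of Mmp13 was 0.15 in knockout rats and 1.27 in unedited rats, so this SE is not that of the knockout rats alone.

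Mmp9 (chromosome 3, 174103474 to 174111434) was high in the same pair of rats. It stood at 5.84, 6.65, 3.10, 3.19 and 3.07 in untreated ZD rats 11 to 15, against 3.05, 3.54, 3.16, 3.15 and 3.17 in ZS rats 16 to 20. The difference of 1.16 (SE 0.44) did not pass (limma adjusted p = 0.076). It passed without ZD rat 13, 14 or 15, where the group is left with fewer low rats (limma adjusted p = 0.0271, 0.0392 and 0.0194), and with the mean of both probe sets (0.93, limma adjusted p = 0.0492). The dimmer probe set of Mmp9 showed the same 2 rats as highest, at 4.30 and 4.92, with the other 3 ZD rats between 3.20 and 3.36 and the ZS rats between 2.89 and 3.55, and in a fit over all probe sets it rose by 0.70 (SE 0.21, limma adjusted p = 0.0283). After antimiR, Mmp9 lay between 2.997 and 3.25 (20 weeks) and between 3.19 and 3.66 (5 weeks), at -1.24 and -1.03 relative to untreated ZD rats (limma adjusted p = 0.169 and 0.609).

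Mmp3 (chromosome 8, 12925267 to 12938828) was high in 1 rat only. It stood at 5.48 in untreated ZD rat 11 and between 2.66 and 3.18 in the other 4 ZD rats, against 2.72 to 2.97 in ZS rats. The difference was 0.58 (SE 0.30, limma adjusted p = 0.205). Its start lies 142.4 kb from that of Mmp13, and the genes Mmp12 and Mmp1b lie between them in GRCr8.

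**Figure D1:**
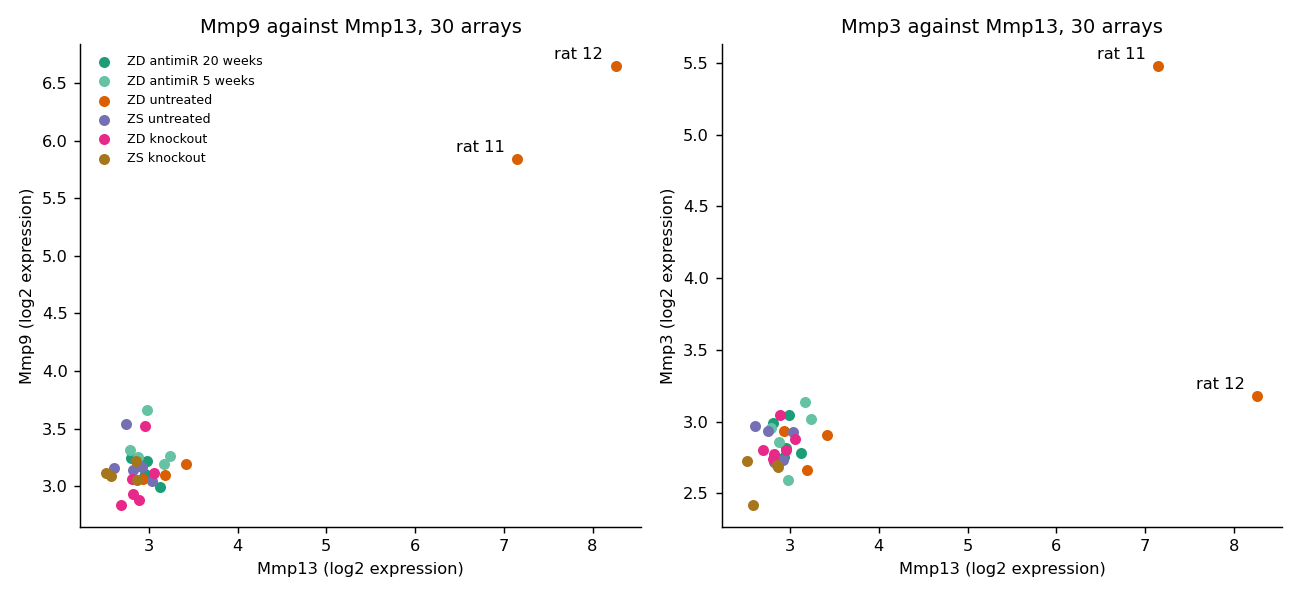
Mmp9 (left) and Mmp3 (right) against Mmp13, in log2 expression, with 1 point for each of the 30 rats coloured by group. Untreated ZD rats 11 and 12 stand apart on Mmp13 at 7.15 and 8.26, and the other 28 rats lie between 2.51 and 3.42. Both are also high on Mmp9, whereas rat 11 alone is high on Mmp3, at 5.48.

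The genes whose levels followed Mmp13 most closely over the 20 unedited arrays were Mmp9 (Pearson r = 0.974), the cytokine gene Il24 (r = 0.942) and Adamts4 (r = 0.898), which encodes an aggrecan-cleaving protease. These correlations rest on rats 11 and 12: without them they were -0.216, 0.227 and -0.254, and over the 10 knockout arrays they were 0.263, 0.12 and 0.067. Il24 stood at 4.64 and 5.69 in rats 11 and 12 and at 3.65, 3.74 and 3.56 in rats 13 to 15, against a range from 3.46 to 4.005 in ZS rats. For Mmp3 the closest genes were Lpo (r = 0.838), Mmp10 (r = 0.81) and Il17f (r = 0.788), with 0.443, 0.443 and 0.075 without the 2 rats farthest from the median. The macrophage means of rats 11 and 12 were 6.60 and 6.63, within the 6.53 to 6.80 of the other 3 untreated ZD rats. Their fibroblast means were 8.73 and 8.60, against 8.61 to 9.09 in those 3. Their means of the 6 measured neutrophil-list genes, 7.05 and 6.73, were the highest of the group, the others lying between 5.66 and 6.58. Their squamous means, 12.51 and 12.59, were also the highest, the others lying between 12.39 and 12.47. The part of either list in the result was not tested.

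Mmp14 (chromosome 15, 31857824 to 31867049) did not pass in any comparison. It stood at 8.42, 8.83, 8.23, 8.12 and 7.58 in untreated ZD rats, against 8.11, 8.20, 7.87, 7.82 and 7.88 in ZS rats, and rats 11 and 12 were again the highest of their group. The difference was 0.26 (95% interval from -0.08 to 0.61, limma adjusted p = 0.327) in unedited rats and 0.26 (95% interval from -0.10 to 0.61, limma adjusted p = 0.305) in knockout rats. The dimmer probe set of Mmp14 was at 0.17 in unedited and at -0.05 in knockout rats (limma adjusted p = 0.447 and 0.838 in a fit over all probe sets). Mmp2 (chromosome 19, 30327643 to 30355856) lay between 7.37 and 7.71 in untreated ZD rats and between 7.12 and 7.48 in ZS rats, with a difference of 0.17 (95% interval from -0.38 to 0.72, limma adjusted p = 0.735).

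**Figure D2:**
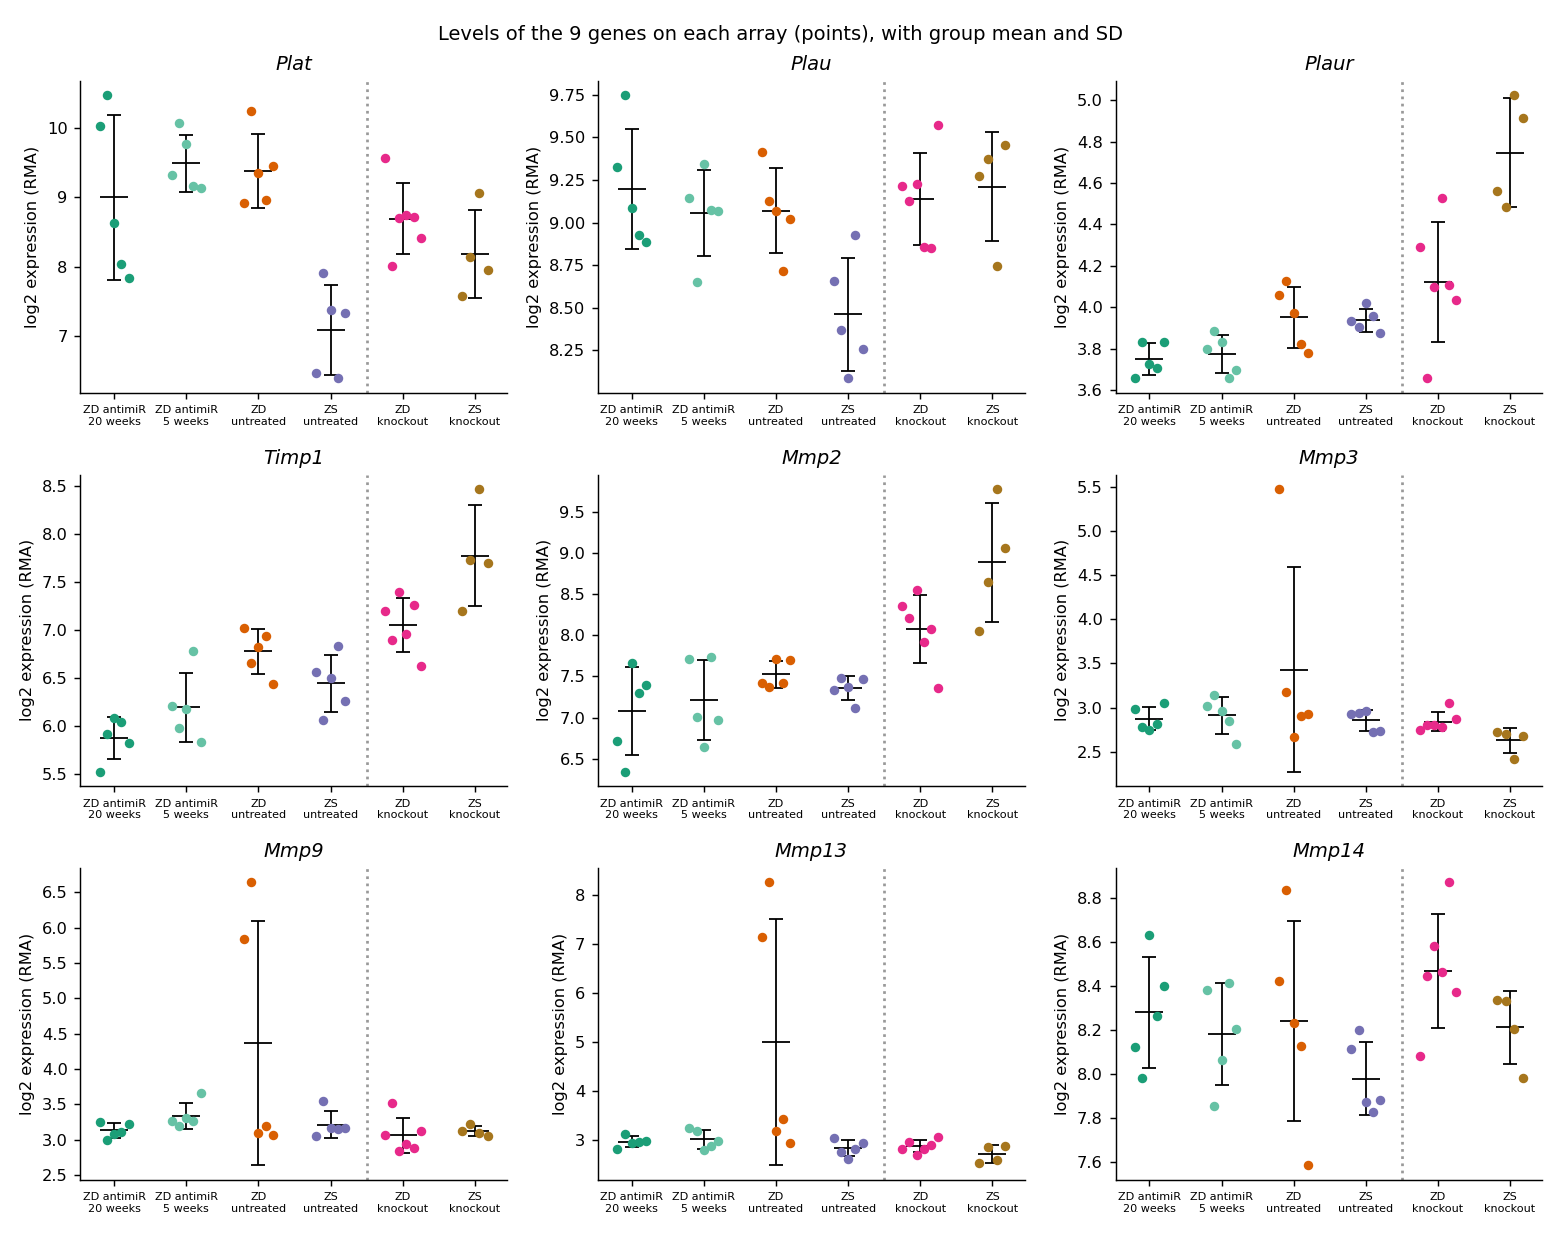
Log2 expression of the 9 genes in each rat (points) by group, with the group mean (bar) and SD (whiskers); n = 5 in each unedited group, 6 in ZD knockout and 4 in ZS knockout, and the dotted line separates the 2 experiments. Plat is lower in untreated ZS rats than in the other unedited groups, Timp1 is lowest after 20 weeks of antimiR, and the wide SDs in untreated ZD rats come from rats 11 and 12 for Mmp9 and Mmp13 and from rat 11 for Mmp3.

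Timp1 (chromosome X, 3766509 to 3772578) was the only one of the 9 genes called after 20 weeks of antimiR against untreated ZD rats, where it fell. Over all genes 0.647% passed in this comparison, 0.485% downward and 0.162% upward. It stood at 5.53, 5.92, 6.08, 6.04 and 5.82 in rats 1 to 5 of the 20-week group, against 7.02, 6.66, 6.82, 6.94 and 6.44 in untreated ZD rats 11 to 15. The groups did not overlap, and the fall was by 0.90 (SE 0.20, limma adjusted p = 0.0279), to 0.537 of the untreated ZD level. The direction held in all 10 fits that left out 1 rat, with changes from -0.98 to -0.81. The call itself was lost in 8 of them, all except those without antimiR rat 2 or ZD rat 15 (limma adjusted p up to 0.0898). The macrophage list was lower as well, with array means between 5.87 and 6.05 after 20 weeks and between 6.53 and 6.80 in untreated ZD rats, although none of its 10 genes passed; its part in the Timp1 change was not tested.

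After 5 weeks of antimiR, Timp1 stood at 6.21, 5.98, 6.18, 6.78 and 5.84 in rats 6 to 10, between the levels of the 20-week rats and of the untreated ZD rats with overlap on both sides. No gene of the 14217 was called after 5 weeks (0% called; 1021 genes had an unadjusted p under 0.05), and Timp1 was at -0.58 (SE 0.20, limma adjusted p = 0.503). Timp1, Mmp9 and Mmp13 were the 3 members with an unadjusted p under 0.05, of 0.00628, 0.0257 and 0.00367. The difference between 20 and 5 weeks was -0.32 (95% interval from -0.72 to 0.08, limma adjusted p = 0.856). In that comparison none of the 9 genes passed, the smallest limma adjusted p was 0.856, none had an unadjusted p under 0.05, and 0.0211% of all genes passed, 0.00703% upward and 0.0141% downward.

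In untreated rats, Timp1 did not pass with diet, at 0.33 (SE 0.20, limma adjusted p = 0.276), with 6.56, 6.06, 6.50, 6.83 and 6.26 in ZS rats 16 to 20. Against these ZS rats, Timp1 was at -0.57 after 20 weeks of antimiR (SE 0.20, limma adjusted p = 0.105) and at -0.25 after 5 weeks (SE 0.20, limma adjusted p = 0.488). Plat and Plau were the 2 members called against ZS in each antimiR group, and both rose. Over all genes 3.63% passed after 20 weeks (1.83% upward, 1.8% downward) and 9.08% after 5 weeks (4.6% upward, 4.48% downward). Mmp13 was at 0.14 (95% interval from -1.14 to 1.41) after 20 weeks and at 0.19 (95% interval from -1.09 to 1.46) after 5 weeks relative to ZS. These intervals use a spread shared by all groups, untreated ZD rats included, and are wider than the compared rats alone imply. The SD of Mmp13 was 0.12, 0.19 and 0.16 in the 20-week, 5-week and ZS groups, against 2.52 in untreated ZD rats. All antimiR rats but rat 5 lay above the ZS rats for Plat, and their Mmp13 values overlapped those of ZS rats.

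**Figure D3:**
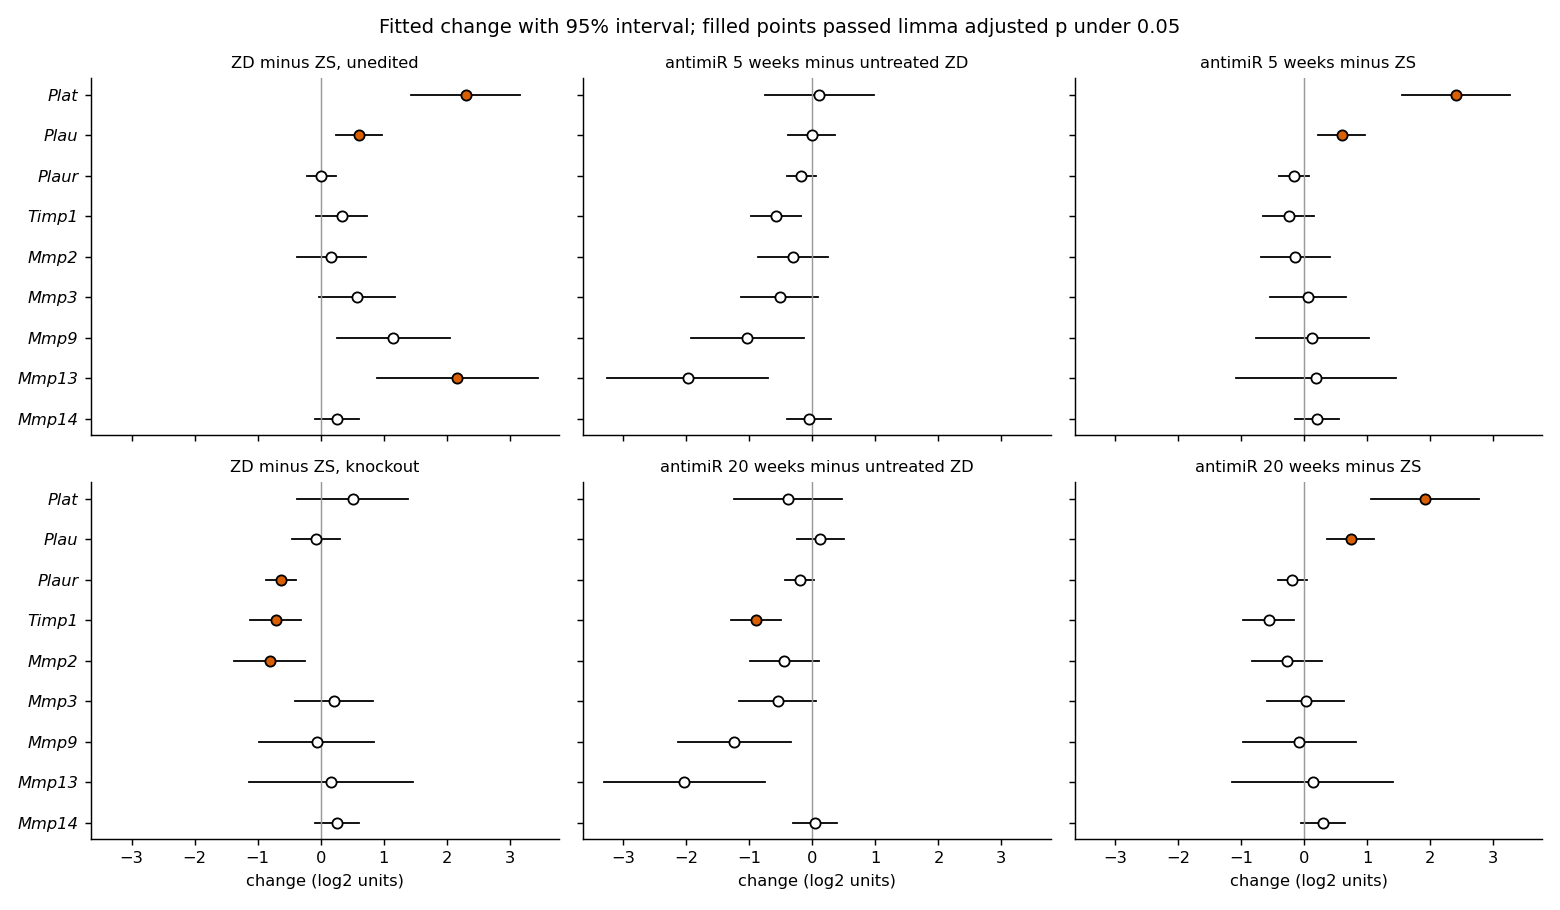
Fitted change of each gene in log2 units with its 95% interval in 6 comparisons; filled points passed a limma adjusted p of 0.05. Plat and Plau are right of 0 and filled in the 3 comparisons of unedited or antimiR ZD rats with ZS rats, Timp1 is filled left of 0 after 20 weeks of antimiR and, with Plaur and Mmp2, in knockout rats on ZD, and Mmp13 has the widest intervals. All intervals of a gene use a spread shared by all groups, so they are not the spread of the compared rats alone.

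In knockout rats, zinc deficiency went with lower Plaur, Timp1 and Mmp2, 3 of the 9 genes, and none rose. Over all genes 21.4% passed in this comparison, 12% downward and 9.47% upward. The median change of the 9 genes was -0.061, against 0.0052 for all genes; with 1 rat left out it ran from -0.072 to 0.012, the highest without ZS rat 33. Matrix, macrophage and endothelial transcripts were lower on ZD too, and ZS rat 32 had the highest mean of each list.

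Timp1 stood at 7.20, 6.90, 7.39, 6.96, 7.26 and 6.62 in ZD knockout rats 34 to 39 (lowest 6.62, median 7.08, highest 7.39), against 7.19, 7.72, 8.47 and 7.70 in ZS knockout rats 30 to 33. ZS rat 30 lay inside the ZD range. The fall was by 0.72 (SE 0.20, limma adjusted p = 0.0119), and without ZS rat 32 it was by 0.48 and was not called (limma adjusted p = 0.107). It was not called with the smooth muscle covariate (-0.45, limma adjusted p = 0.163) or when only the 10 knockout arrays were fitted (limma adjusted p = 0.0549).

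Mmp2 had a lowest, median and highest value of 7.36, 8.15 and 8.55 in ZD knockout rats, against 8.06, 8.65, 9.79 and 9.06 in ZS knockout rats 30 to 33. It fell by 0.81 (SE 0.27, limma adjusted p = 0.0359). The call was lost without ZS rat 32 (-0.51, limma adjusted p = 0.243), without ZS rat 33 or ZD rat 37, 38 or 39 (limma adjusted p from 0.0519 to 0.0909), with the smooth muscle covariate (-0.42, limma adjusted p = 0.364) and when only the knockout arrays were fitted (limma adjusted p = 0.101). Its dimmer probe set was at 0.04 (limma adjusted p = 0.742).

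Plaur had a lowest, median and highest value of 3.66, 4.10 and 4.53 in ZD knockout rats, against 4.56, 4.48, 5.02 and 4.92 in ZS knockout rats. Only ZD rat 37, at 4.53, reached into the ZS range. The fall was by 0.63 (SE 0.12, limma adjusted p = 0.000414) and passed in all 10 fits that left out 1 rat, with limma adjusted p up to 0.00461, and also when the smooth muscle level was a covariate. The SE and these fits share a spread with unedited rats, whose pooled SD was 0.10 against 0.28 in knockout rats. The fall also passed when only the knockout arrays were fitted. Values this low may lie near background, which was not tested. A second, dimmer probe set of Plaur was at -0.07 (limma adjusted p = 0.59).

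ZS knockout rat 32 had the highest fibroblast and macrophage means of all 30 arrays, 11.25 and 9.09. The other 3 ZS knockout rats lay between 9.46 and 10.23 for fibroblast and between 6.96 and 7.87 for macrophage genes, and the ZD knockout rats between 8.89 and 9.99 and between 6.56 and 7.28. On ZD, 4 of 10 fibroblast genes (Col1a2, Col3a1, Col6a3 and Thy1), 5 of 10 macrophage genes (Csf1r, Cd14, C1qa, C1qb and C1qc) and 4 of 10 smooth muscle genes fell in knockout rats. Of the endothelial list 3 of 9 fell and 0 lay above 0 (median -0.44), while 0 of 9 squamous genes passed. In the skeletal muscle list 1 of 9 fell, and in the neutrophil list 1 of 6 rose and 1 fell. Over all genes 12% fell and 9.47% rose. Deviations from the group mean over the 10 knockout arrays correlated with those of the fibroblast list at r = 0.973 for Mmp2, 0.944 for Timp1, 0.709 for Plat and 0.418 for Plaur. With the macrophage list they were, in the same order, 0.885, 0.917, 0.777 and 0.514. With the endothelial list they were 0.739, 0.807, 0.435 and 0.311. With the squamous list they were -0.816, -0.885, -0.845 and -0.399, so the fibroblast list was not alone. Over the 20 unedited arrays the fibroblast values were 0.908 for Mmp2, 0.296 for Timp1, -0.495 for Plat and -0.317 for Plaur. The macrophage values there were 0.621, 0.169, -0.05 and -0.113, and the squamous values 0.192, 0.156, -0.401 and 0.537. The endothelial values there were 0.758, 0.314, -0.358 and -0.466. These are descriptions over arrays that share tissue makeup and normalization, and the part of tissue makeup in the diet differences was not tested.

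**Figure D4:**
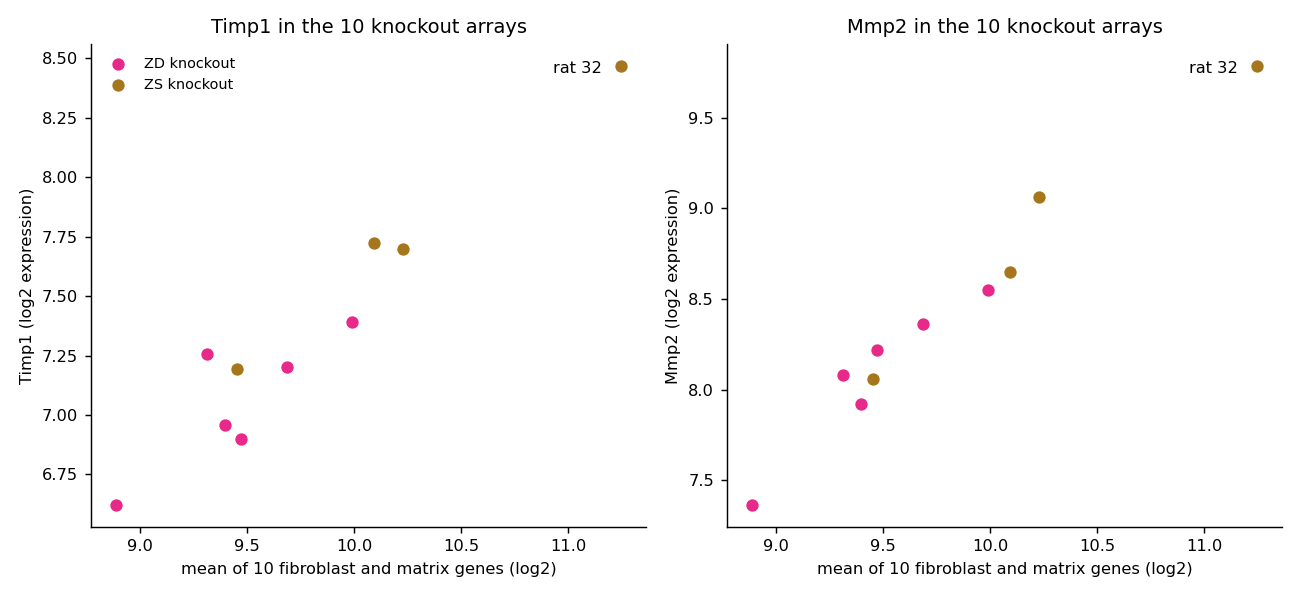
Timp1 (left) and Mmp2 (right) in log2 expression against the mean of 10 fibroblast and matrix genes on the 10 knockout arrays, coloured by diet. Both genes follow the matrix level across rats, and ZS rat 32 is highest on every axis, with 11.25 for the matrix mean, 8.47 for Timp1 and 9.79 for Mmp2. The macrophage list, not drawn, correlated with both genes as well (r = 0.917 for Timp1 and 0.885 for Mmp2, deviations from the group mean).

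The diet effect differed between knockout and unedited rats for 2 of the 9 genes, both negative, where 8.39% of all genes passed, 3.78% upward and 4.61% downward. The diet effects compared come from separate experiments, so genotype cannot be told apart from experiment or normalization in this difference. For Plaur the interaction was -0.64 (SE 0.16, limma adjusted p = 0.016) and for Timp1 the interaction was -1.05 (SE 0.28, limma adjusted p = 0.0217). Both calls were lost without ZS knockout rat 32 (limma adjusted p = 0.051 and 0.0674). For Mmp2 the interaction was -0.98 (SE 0.38, limma adjusted p = 0.111) and for Plau -0.68 (SE 0.26, limma adjusted p = 0.1). Mmp2 passed without ZS knockout rat 30 (-1.25, limma adjusted p = 0.0285) or with the smooth muscle covariate (-1.23, limma adjusted p = 0.026), and Plau with the mean of both probe sets (-1.11, limma adjusted p = 0.0174). The fitted interaction was below 0 for all 9 genes, from -1.998 for Mmp13 to -0.0056 for Mmp14 (median -0.98, against -0.0071 for all genes). All 9 values come from the same arrays, so their shared sign is not 9 separate results. The interaction was also below 0 for every measured gene of 3 cell type lists: macrophage (10 genes, 4 called, median -1.04), endothelial (9 genes, 4 called, median -0.78) and fibroblast (10 genes, none called, median -0.38). Their part in the Timp1 and Plaur results was not tested. Mmp14 turned positive when arrays were quantile normalized or median centred.

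The genes closest to Mmp2 over the 20 unedited arrays were the complement genes C1s (r = 0.907) and Serping1 (r = 0.884) and the G protein subunit gene Gng11 (r = 0.874), which had r = 0.946, 0.946 and 0.9 over the 10 knockout arrays. For Timp1 they were Ifi30 (r = 0.869), B4galt1 (r = 0.837) and Smim3 (r = 0.827), with 0.802, 0.051 and 0.669 in knockout rats. For Plat they were Slc25a35 (r = 0.935), the ephrin gene Efna5 (r = 0.929) and Atp13a5 (r = 0.928), with 0.315, 0.085 and 0.604 in knockout rats. For Plau the closest was Adam17 (r = 0.882 and, in knockout rats, 0.255), followed by Med17 and Marchf8 (r = 0.843 and 0.824). For Plaur they were Ube2j1, Spire1 and St6galnac4 (r from 0.792 to 0.848) and for Mmp14 Gfpt2, Stox2 and Siglec5 (r from 0.697 to 0.769). Group differences contribute to these correlations over 20 arrays, and each triple was picked as the highest among all genes.

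Among the 9 genes themselves, deviations from the group mean over the 20 unedited arrays correlated most for Mmp9 with Mmp13 (r = 0.973), with rats 11 and 12 far from the rest. Timp1 and Mmp2 deviated together in knockout rats (r = 0.93, n = 10) and less in unedited rats (r = 0.261, n = 20). Plat and Timp1 had opposite signs in these sets, at 0.764 in knockout and -0.486 in unedited rats. The spread between rats of a group, as a pooled SD, was 1.27 for Mmp13 in unedited rats and 0.15 in knockout rats, and 0.10 for Plaur in unedited rats and 0.28 in knockout rats.

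Of 13 other measured genes of the plasminogen system, 1 rose and none fell on zinc deficiency in unedited rats (median 0.017). Over all genes 6.94% rose and 6.95% fell in this comparison, so the 1 rise in 13 is near the all-gene share. The gene that rose was Serpine2, which encodes the serpin protease nexin-1, an inhibitor of thrombin and of both activators. It lay at 6.09, 6.47, 6.196, 5.99 and 6.21 in untreated ZD rats, against 4.83, 5.35, 5.25, 5.46 and 5.65 in ZS rats, with no overlap, and rose by 0.88 (SE 0.23, limma adjusted p = 0.0109). It was also higher after 5 weeks of antimiR than in ZS rats, by 0.74 (limma adjusted p = 0.0384), and its interaction with genotype was -1.38 (limma adjusted p = 0.0111). Serpinb2, which encodes plasminogen activator inhibitor type 2, stood at 12.17 ± 0.26 in untreated ZD and 11.88 ± 0.12 in ZS rats (SD, n = 5 each) and did not pass (0.29, limma adjusted p = 0.162). In knockout rats Serpinb2 rose on ZD by 0.57 (SE 0.14, limma adjusted p = 0.0047), while the endocytic receptor gene Lrp1 and the adhesion protein gene Vtn fell by 0.58 and 0.59 (limma adjusted p = 0.0142 and 0.0291).

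Of 21 other measured metalloproteinase genes, 2 rose and 1 fell on ZD in unedited rats (median -0.0077). Over all genes 13.9% passed in this comparison, 6.94% upward and 6.95% downward, so the list count is near the all-gene share. The macrophage elastase gene Mmp12, which lies between Mmp13 and Mmp3, rose by 0.95 (SE 0.28, limma adjusted p = 0.0218), with 5.48, 7.06, 5.14, 5.22 and 4.65 in untreated ZD rats, against 4.48 to 4.63 in ZS rats; all 5 ZD rats lay above the ZS rats, and rat 12 was highest. Adam17, which encodes a sheddase of growth factors and tumour necrosis factor, rose by 0.32 (limma adjusted p = 0.0109) in unedited rats, and by 0.30 (limma adjusted p = 0.0129) in knockout rats. It was also higher than in ZS rats after 20 weeks of antimiR by 0.43 (limma adjusted p = 0.005) and after 5 weeks by 0.32 (limma adjusted p = 0.0154). Mmp11, the stromelysin-3 gene, fell by 0.78 in unedited rats (SE 0.21, limma adjusted p = 0.0124) and by 0.78 in knockout rats (SE 0.21, limma adjusted p = 0.00936). It was also lower than in ZS rats in both antimiR groups, at -0.75 after 20 weeks (limma adjusted p = 0.0405) and at -0.71 after 5 weeks (limma adjusted p = 0.0287). Adam15 and Adamts1 were lower than in ZS rats after 20 weeks of antimiR, at -0.36 and -0.91 (limma adjusted p = 0.0267 and 0.0412). Mmp10, a second stromelysin gene, stood at 4.52 and 4.06 in untreated ZD rats 11 and 12 and between 3.31 and 3.55 in rats 13 to 15, against 3.19 to 3.47 in ZS rats, and did not pass (0.46, limma adjusted p = 0.0513). In knockout rats 1 of the 21 genes rose on ZD, Adam17, and 5 fell: Mmp11, Adam10 (-0.61), Mmp23 (-0.41), Adamts9 (-0.39) and Adam8 (-0.36). Over all genes 9.47% rose and 12% fell in that comparison. Adam10 and Adamts9 also passed the interaction, at -0.77 and -0.68 (limma adjusted p = 0.0433 and 0.0307).

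Of 8 other measured inhibitor genes, 1 fell on ZD in unedited rats and none rose (median -0.27). Over all genes 6.95% fell and 6.94% rose in this comparison. Reck, which encodes a membrane-anchored metalloproteinase inhibitor, fell by 0.97 (SE 0.28, limma adjusted p = 0.0205), with 7.87, 7.65, 8.33, 7.47 and 8.13 in untreated ZD rats, against 8.89, 9.00, 8.81, 8.39 and 9.21 in ZS rats, without overlap. Timp2 and Timp3 did not pass, at -0.98 (limma adjusted p = 0.0789) and -0.72 (limma adjusted p = 0.106). Timp2 was lower than in ZS rats after 5 weeks of antimiR, at -1.34 (limma adjusted p = 0.0239), and stood at -1.29 after 20 weeks (limma adjusted p = 0.0506). In knockout rats Timp3 and Timp4 fell on ZD by 0.84 and 0.43 (limma adjusted p = 0.0486 and 0.0439). Against untreated ZD rats, none of the measured genes of the 3 lists passed after 5 or after 20 weeks of antimiR. Of all genes 0% passed after 5 weeks and 0.647% after 20 weeks. The smooth muscle and fibroblast levels given above differed along the same comparisons, and their part in these list results was not tested.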

How the data were processed

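RNA from the oesophageal epithelium was hybridised to Affymetrix rat arrays. The deposited values are log2 expression per probe set, made with Affymetrix Expression Console and RMA, per the submitters' processing notes; no version is recorded there. The table lists 31099 probe sets: 20826 with a single gene symbol, 436 with more than 1, 57 controls and 9780 unnamed. Symbols were updated by gene ID to RefSeq (GRCr8), and the probe set with the highest mean over all arrays stood for each of 14217 genes. Coordinates are those of the RefSeq genes, not of the probes.

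With limma 3.58.1 in R 4.3.3, lmFit and eBayes took each group as a coefficient over the 30 arrays, and p-values were adjusted by Benjamini-Hochberg within a comparison. Each gene had 1 spread estimate shared by all 6 groups. An SE or interval therefore also reflects the spread of groups outside the comparison. Nothing in the labels pairs rats, and no arrays were identical. The members, lists and named genes were chosen with earlier results of these data known: all 9 members, of each list up to 4 genes that passed per comparison by smallest adjusted p (the 5 lower metalloproteinase genes in knockout rats are all named), Serpinb2, Timp2, Timp3 and Mmp10, and 3 closest genes per member. Il24 and Adamts4 came from the last. On simulated data for diet in unedited rats (14217 genes), 91 of 100 genes changed by 1 log2 unit and 70 of 100 changed by 0.5 were recovered. For diet in knockout rats the counts were 94 and 56 of 100. The simulated noise was normal, so a gene high in only some rats of a group, as Mmp13 was, was not represented. Changes of these sizes and smaller ones may be missed, and 4 to 6 arrays per group limit the precision.
Alternatives were each rat left out in turn, a smooth muscle covariate, averaged probe sets, separate fits of the 2 experiments, eBayes with trend and robust options, a filter on the dimmest 30% of genes, and arrays centred on their medians or quantile normalized.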

Additional observations from a re-analysis of the deposited data

Results flagged for a closer look

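In 54 groups of 4 to 6 arrays (9 genes in 6 groups), 4 held a rat whose gap to its neighbour was large for the range of the group, and chance gives about 1 in 20. Mmp3 was high in untreated ZD rat 11, at 5.48, with the other 4 rats between 2.66 and 3.18. Mmp3 was low in ZS knockout rat 32, at 2.42, with the others between 2.68 and 2.72, which is a small distance at a low level. Mmp9 was high in 5-week antimiR rat 10, at 3.66, with the others between 3.19 and 3.31, and in untreated ZS rat 17, at 3.54, with the others between 3.05 and 3.17. The pair of high rats for Mmp13 and Mmp9 in untreated ZD rats is not picked out by this measure, which looks at 1 rat at a time.

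The diet effect differed between knockout and unedited rats by the interaction test for Plaur (-0.64) and Timp1 (-1.05). Both calls were lost without ZS knockout rat 32, as given above, and genotype cannot be told apart from experiment in this test.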

How the results depend on the processing

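No paired analysis was possible because the groups share no rat numbers. Of 463 member values under 7 other settings, 430 kept direction and side of the threshold. With the smooth muscle covariate the members that passed were 0 of 9 for the unedited diet comparison, 1 for 5 weeks of antimiR against ZS, 0 for 20 weeks against ZS and 1 for diet in knockout rats; the covariate itself differs with diet, so this fit also removes diet effect. With the mean of probe sets 1 passed against ZS in each antimiR group, with only the knockout arrays 1 passed for diet there, and without the dimmest 30% of genes, which leaves out Plaur, Mmp3, Mmp9 and Mmp13, 1 passed the interaction. Leaving out 1 rat gave 1 to 4 members for diet in unedited rats, 0 to 2 for 20 weeks against untreated ZD, 1 to 2 for 5 weeks against ZS, 0 to 2 for 20 weeks against ZS, 1 to 3 for diet in knockout rats and 0 to 4 for the interaction, and 0 for the other comparisons.

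All sign changes were of values not called in either fit. With the smooth muscle covariate these were Plaur for diet in unedited rats (-0.089), Plat for 20 weeks against untreated ZD (0.074), Mmp13 for 20 against 5 weeks (0.041), Timp1 (0.047), Mmp2 (0.29), Mmp9 (-0.072) and Mmp13 (-0.19) for 5 weeks against ZS, Mmp2 (0.054) and Mmp13 (-0.15) for 20 weeks against ZS, and Plat (-0.069) and Mmp13 (-0.17) for diet in knockout rats. With the mean of probe sets Mmp9 was at 0.022 for 20 weeks against ZS and 0.0041 for diet in knockout rats. The Mmp14 interaction was 0.023 with quantile normalization and 0.027 with median centring. With 1 rat left out, Plaur for diet in unedited rats ran from -0.030 to 0.056. For 5 weeks against untreated ZD, Plat ran from -0.040 to 0.32, Plau from -0.10 to 0.089 and Mmp14 from -0.22 to 0.092. For 20 weeks against untreated ZD, Plau ran from -0.011 to 0.21 and Mmp14 from -0.12 to 0.19. For 20 against 5 weeks, Plaur ran from -0.053 to 0.0032, Mmp2 from -0.28 to 0.052, Mmp3 from -0.12 to 0.021 and Mmp13 from -0.11 to 0.0060. Against ZS, Mmp2 after 5 weeks ran from -0.27 to 0.0022, and after 20 weeks Mmp3 from -0.021 to 0.053 and Mmp9 from -0.12 to 0.00055. Plau for diet in knockout rats ran from -0.23 to 0.012, and the interactions of Mmp3 and Mmp14 from -0.56 to 0.15 and from -0.17 to 0.14.

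The number of all genes called moved by over 1.5 times with the smooth muscle covariate, to 121 from 1974 for diet in unedited rats, 28 from 92 for 20 weeks against untreated ZD, 270 from 1291 and 119 from 516 for 5 and 20 weeks against ZS, and 1543 from 3049 for diet in knockout rats. With quantile normalization 2 genes passed for 5 weeks against untreated ZD, against 0, and without dim genes 7 for 20 against 5 weeks, against 3. With 1 rat left out these counts ran from 1191 to 2424, 9 to 379, 771 to 1547, 166 to 690, 1566 to 3244, 0 to 4 and 0 to 20 in the order of the comparisons just named, and from 615 to 1519 for the interaction (1193).
The counts moved by over 1.5 times without ZS knockout rat 32 in both knockout comparisons (1566 and 615), without ZD rat 14 for diet in unedited rats (1191), without 5-week rat 8 against ZS (771), without 20-week rats 1 or 2 or ZS rats 16 or 18 for 20 weeks against ZS (182, 166, 241 and 287), and for 20 weeks against untreated ZD without any of the 20-week rats (from 9 to 379) or without ZD rats 12, 14 or 15 (9, 27 and 258).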
